A study of Mus musculus with 12 samples.

Results

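*Olfr78* and *Olfr558* are 2 class I odorant receptor (OR) genes that are also known from cells outside the nose. Their RNA was measured in the main olfactory epithelium (MOE), in 6 mice that lack the J element (ΔJ) and 6 wild-type mice. The members were defined by their symbols and not by a cut on their values, though earlier results of these data were known. They are the probe sets annotated as *Olfr558* alone or as including *Olfr78*. These were 2 of the 1213 OR probe sets and of the 35556 probe sets on the array. A probe set is the group of probes that reads 1 gene, and the one for *Olfr78* also carries the symbol *Olfr560*, so it is written *Olfr78*/*Olfr560* throughout. ΔJ mice were homozygous for a deletion of this element, an enhancer in the class I OR cluster on chromosome 7. They descend from 1 founder made by genome editing in B6C3F1 eggs and crossed back to C57BL/6NCrSlc, through heterozygotes of the second backcross, and the wild-type mice were littermates, all labelled C57BL/6. The ΔJ group held 3 males and 3 females, 5 taken at postnatal day 30 and 1 at day 33. The wild-type group held 2 males and 4 females, 4 taken at day 30 and 2 at day 33.

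Odorant receptors are G protein-coupled receptors, and each olfactory sensory neuron (OSN) is thought to express 1 of them. In OSNs they act through the G protein subunit encoded by *Gnal*, the adenylyl cyclase encoded by *Adcy3* and a cation channel opened by cyclic AMP. Class I receptors were first identified in fish, and many of them respond to carboxylic acids. The study divides them into an α-group found only in tetrapods and a β-group conserved among vertebrates. Neither receptor here is among the mouse β-group genes it names, so both fall in the α-group. *Olfr78* responds to short-chain fatty acids such as acetate and propionate and is known from vascular smooth muscle, renin-producing cells of the kidney and glomus cells of the carotid body. *Olfr558* responds to slightly longer acids such as butyrate and isovalerate and is known from vascular smooth muscle. The human counterparts of both genes were first described in the prostate.

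Every level below is a log2 signal minus the 75th percentile of the same array, so 0 marks that percentile and 1 unit is a doubling. Over all probe sets the standard deviation of an array was 2.07 to 2.13 in replicates 1 to 3 of each genotype and 2.20 to 2.23 in replicates 4 to 6, so these were treated as a pair of array sets with 3 mice of each genotype. Precision is limited by the number of mice. Nothing in the sources says which mice share a litter, and each mouse was treated as 1 replicate. The tissue label fitted its markers, with *Omp*, the gene of the olfactory marker protein of mature OSNs, at 3.98 in ΔJ and 3.95 in wild-type mice.

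Both receptors lie in the part of the class I cluster near the J element. By RefSeq positions on GRCm38.p6, *Olfr558* runs from 102702323 to 102712054 on the plus strand of chromosome 7, with its nearer end 0.192 Mb from the middle of the deleted element. *Olfr78* runs from 102740721 to 102759471 on the minus strand, with its nearer end 0.23 Mb away. *Olfr560*, from 102752983 to 102753927, lies wholly inside the span of *Olfr78*. The sources used here do not say which probes of the shared probe set read which gene. The only other probe set that the study listed with *Olfr560* is shared with *Olfr564*. It was at -4.90 in ΔJ and -4.69 in wild-type mice. Y-linked genes in the 7 females, a gauge of background, averaged -3.72 in *Kdm5d*, -4.69 in *Uty* and -4.99 in *Eif2s3y*, so the level of that probe set lay among background values. Both genes have long annotated spans for their family. Among the first-named genes of the 128 probe sets of intact class I genes, the median span was 957 bp, and only 6 genes spanned more than 5000 bp. *Olfr78* was the longest at 18751 bp, and *Olfr558* was the fourth at 9732 bp. These are spans of RefSeq models, and whether the short models hold every exon of their gene was not checked. The older MOR names place *Olfr557* (MOR18-3), *Olfr558* (MOR18-1) and *Olfr78* (MOR18-2) in one receptor subfamily.

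The 250 bases before the annotated start of *Olfr558* are shown because this receptor kept more of its signal in ΔJ mice than *Olfr33*, the next gene after it, as given below. The sequence is from RefSeq, GRCm38.p6, chr7:102702073-102702322, plus strand, 5′ to 3′. Capitals mark the single match to TAAT on either strand, the core that homeodomain proteins such as *Lhx2* bind.
Olfr558: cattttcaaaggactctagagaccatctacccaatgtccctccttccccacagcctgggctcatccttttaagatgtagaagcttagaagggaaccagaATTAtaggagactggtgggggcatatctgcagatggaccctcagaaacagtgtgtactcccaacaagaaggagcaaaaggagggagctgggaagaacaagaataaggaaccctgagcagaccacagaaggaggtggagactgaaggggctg
The match begins at -151 relative to the start. A TAAT core was present in the same window of 93.6% of 944 OR genes and of 55.3% of 27025 genes in the table. The core of O/E sites, which the EBF proteins of OSNs bind, was searched as CCCNNGGG on both strands. It had 0 matches, against a share of 2.75% of OR genes and 11.7% of all genes. The CArG box of smooth muscle genes also had 0 matches, and it was present in 1.59% of OR genes and 1.4% of all genes. The study writes O/E-like sites otherwise, as YYYCARRRR (Y is C or T, R is A or G), and the share of genes with that pattern was not counted. The window holds a match to it, tttcaaagg, so the lack of CCCNNGGG does not mean that an O/E-like site is absent. The 3 motif searches did not overlap in this window. The window held 50.0% G and C, against a median of 34.0% over the OR genes, and only 22 other OR genes were as high or higher. Each window ends at the start of a RefSeq model. Whether the models of other OR genes begin at the start of transcription was not checked. The shares and the median may therefore come from unlike windows. The matches and the G and C content are properties of the letters alone, and they were not set against those of a flanking gene. Whether they bear on the size of the decrease was not tested.

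*Olfr558* fell in ΔJ mice, with a similar spread in both genotypes. Its level was -2.59, -2.53, -2.47, -2.27, -2.41 and -2.52 in ΔJ replicates 1 to 6, against -1.95, -2.22, -1.99, -1.90, -1.88 and -2.01 in wild-type replicates 1 to 6. The genotypes did not overlap, since the highest ΔJ mouse, replicate 4, was below the lowest wild-type mouse, replicate 2. The mean was -2.46 ± 0.11 in ΔJ and -1.99 ± 0.12 in wild-type mice (SD, n = 6 each). The log2 fold change was -0.47 ± 0.10 (SE, with a 95% confidence interval -0.68 to -0.26, limma-adjusted p = 0.00505 over the OR probe sets). The signal in ΔJ mice was 72.0% of that in wild-type mice. In bulk tissue, fewer neurons that chose a receptor and less RNA per neuron cannot be told apart. An exact two-sided permutation test, with 924 possible splits, gave p = 0.00216, the smallest it allows.

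The *Olfr78*/*Olfr560* probe set also fell, with a wider spread among mice. Its level was -2.93, -2.91, -2.85, -3.45, -3.68 and -3.52 in ΔJ replicates 1 to 6, against -2.45, -2.21, -2.32, -2.54, -2.87 and -2.53 in wild-type replicates 1 to 6. The genotypes overlapped by 1 pair only, since wild-type replicate 5 at -2.87 lay just below ΔJ replicate 3 at -2.85. The mean was -3.22 ± 0.37 in ΔJ and -2.49 ± 0.23 in wild-type mice (SD, n = 6 each). The log2 fold change was -0.74 ± 0.16 (SE, with a 95% confidence interval -1.08 to -0.39, limma-adjusted p = 0.00896 over the OR probe sets). The signal in ΔJ mice was 60.1% of that in wild-type mice. The levels in ΔJ replicates 4 to 6 were inside the *Kdm5d* range of the females (-4.23 to -3.05) and above those of *Uty* (-5.09 to -4.07) and *Eif2s3y* (-5.30 to -4.73). If *Kdm5d* is taken as background, the decrease is a lower limit, and its rank among class I genes is not determined. The exact two-sided permutation test gave p = 0.00433. When the fit and the adjustment ran over every probe set of the array, this decrease no longer passed (adjusted p = 0.313 from limma), while that of *Olfr558* did (adjusted p = 0.0258).

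**Figure D1:**
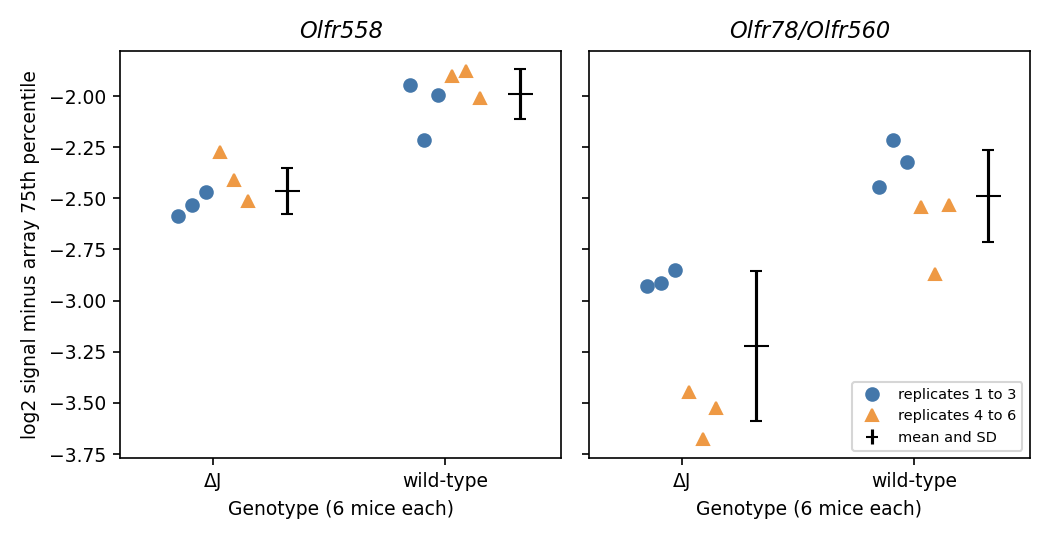
Level of *Olfr558* and of the *Olfr78*/*Olfr560* probe set (vertical axis, log2 signal minus the 75th percentile of the array) in ΔJ and wild-type mice (n = 6 each, 1 point per mouse, bars are mean and SD). Circles are replicates 1 to 3 and triangles replicates 4 to 6, and in the *Olfr78*/*Olfr560* panel the triangles lie below the circles in both genotypes, with ΔJ below wild-type within each set.

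Both probe sets passed the call used here, a fold change beyond 1.3 with an adjusted p under 0.05, and both were lower. Across the OR probe sets tested, 6.18% were called lower and 0.0824% higher. Among the class I genes that are intact, 57% were called lower, the share against which 2 called members of 2 are to be read. In the fit over every probe set 1 of the 2 was called lower, against 0.129% of all probe sets and 34.4% of intact class I probe sets. Complete separation of the genotypes, as in *Olfr558*, was present in 5.36% of OR probe sets and 49.2% of intact class I probe sets. By size of decrease *Olfr78*/*Olfr560* was number 43 and *Olfr558* number 75 of the 128 intact class I probe sets, whose median log2 fold change was -0.53, against -0.05 over all OR probe sets. Among the 30 intact class I probe sets within 0.5 Mb of the element the median was -0.73, with 14 probe sets lower than *Olfr78*/*Olfr560* and 23 lower than *Olfr558*.

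**Figure D2:**
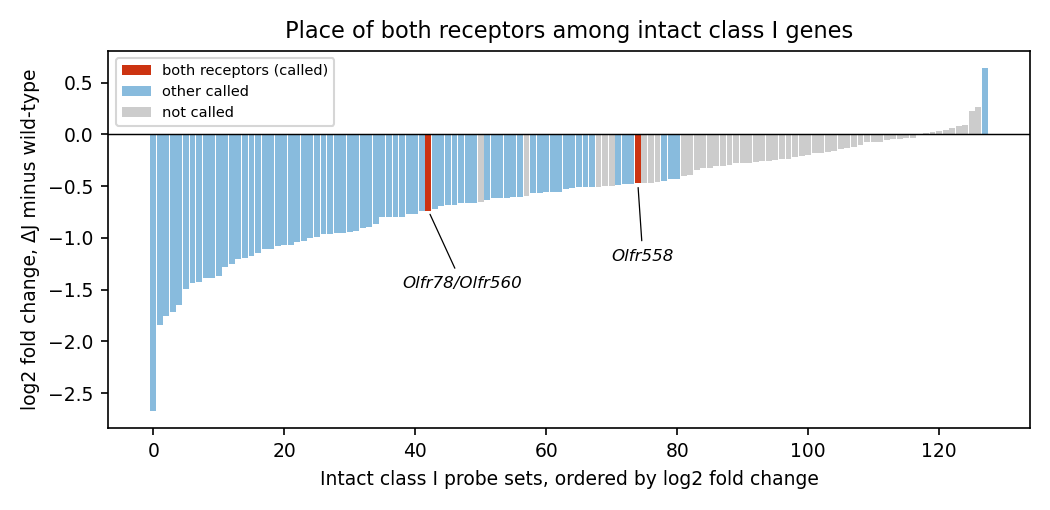
Log2 fold change (ΔJ minus wild-type, vertical axis) of the 128 intact class I probe sets in order of size, with both receptors in red, other called probe sets in blue and those not called in grey. *Olfr78*/*Olfr560* at -0.74 lies below and *Olfr558* at -0.47 above the class I median of -0.53.

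The level of *Olfr78*/*Olfr560* differed between the sets of arrays, and its decrease was present in both. In replicates 1 to 3 the mean was -2.90 ± 0.04 in ΔJ and -2.33 ± 0.12 in wild-type mice (SD, n = 3 each), a difference of -0.57. In replicates 4 to 6 it was -3.55 ± 0.12 in ΔJ and -2.65 ± 0.19 in wild-type mice (SD, n = 3 each), a difference of -0.90. Within each set all ΔJ mice were below all wild-type mice. The second set was lower by 0.49 at equal genotype (difference -0.49, standard error 0.09, adjusted p = 0.000809 from limma), and in 54.1% of the OR probe sets the second set was lower and passed that test. With the array set as a block the decrease of *Olfr78*/*Olfr560* had an adjusted p of 4.06e-05 from limma. The difference of -0.33 between the decreases in the second and first set did not pass (standard error 0.18, adjusted p = 0.991 from limma). Age was not balanced over the sets, since all mice of day 33 (ΔJ replicate 6 and wild-type replicates 5 and 6) were in the second. The share of age in the differences between the sets was not tested for either receptor.

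*Olfr558* decreased by nearly the same amount in both sets, -0.48 in replicates 1 to 3 and -0.47 in replicates 4 to 6. The difference of these decreases was 0.01 ± 0.16 (SE, limma-adjusted p = 0.993). In replicates 4 to 6 alone, *Olfr558* did not pass the adjusted test (adjusted p = 0.0995 from limma), nor with the mice of day 30 only (log2 fold change -0.44, adjusted p = 0.0764). Its level was higher in the second set by 0.13 at equal genotype (adjusted p = 0.183 from limma). After quantile normalization, a setting chosen after the data were seen, both receptors differed between the sets, in opposite directions, by 0.27 in *Olfr558* and -0.31 in *Olfr78*/*Olfr560* (adjusted p = 0.0169 and 0.0162 from limma).

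The decrease was present in both sexes for both receptors. It was -0.61 in males and -0.37 in females for *Olfr558*, and -0.53 in males and -0.89 in females for *Olfr78*/*Olfr560*. The differences between the sexes, -0.24 ± 0.20 (SE) and 0.36 ± 0.35 (SE), did not pass the interaction test (adjusted p = 0.968 from limma for both). Sex was not balanced over the array sets, since ΔJ replicates 1 and 2 were male and ΔJ replicates 4 and 5 female. The interaction test had no term for the array set, and its share in these differences was not tested.

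A difference between the sizes of both decreases was not resolved. The log2 fold change of *Olfr558* minus that of *Olfr78*/*Olfr560* was 0.26 ± 0.22 (SE, exact two-sided permutation p = 0.273, adjusted p = 0.351 over 9 pairs). It was 0.09 in replicates 1 to 3 and 0.43 in replicates 4 to 6, and an exact test with splits kept within the sets of arrays gave p = 0.065. By the *Kdm5d* gauge the decrease of *Olfr78*/*Olfr560* is a lower limit, so the size of this difference is not determined.

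*Olfr558* was set against the class I genes that flank it, which probe sets of their own read. *Olfr557*, of the same MOR18 subfamily, lies 3050 bp before it and *Olfr33*, a receptor of the MOR11 subfamily on the other strand, 1400 bp after it. *Olfr33* had a median level of -2.32 in ΔJ mice (range -2.44 to -2.03) and -1.08 in wild-type mice (range -1.11 to -1.01), a wide gap between the genotypes. Its log2 fold change was -1.19 ± 0.10 (SE, limma-adjusted p = 7.3e-07). By measured values the decrease of *Olfr558* was smaller by 0.72 ± 0.11 (SE, exact two-sided permutation p = 0.00216, adjusted p = 0.00974 over 9 pairs). The difference was 0.73 and 0.71 in the first and second set of arrays.

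*Olfr557* had a median level of -2.38 in ΔJ mice (range -2.63 to -2.24) and -1.64 in wild-type mice (range -1.82 to -1.3), without overlap. Its log2 fold change was -0.77 ± 0.11 (SE, limma-adjusted p = 0.000212). The log2 fold change of *Olfr558* minus that of *Olfr557* was 0.30 ± 0.13 (SE), which did not pass after adjustment (exact two-sided permutation p = 0.0476, adjusted p = 0.107 over 9 pairs). Without wild-type replicate 5 the difference was 0.36 and passed (adjusted p = 0.0195).

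*Olfr559*, the MOR11 gene between *Olfr33* and *Olfr78*, showed the largest decrease of the flanking genes. ΔJ mice ranged from -3.60 to -3.27 and wild-type mice from -2.48 to -1.64. The log2 fold change was -1.37 ± 0.13 (SE, limma-adjusted p = 3.48e-06). By measured values both receptors decreased less than *Olfr559*, *Olfr558* by 0.89 ± 0.16 (SE, adjusted p = 0.00974 over 9 pairs, exact permutation test) and *Olfr78*/*Olfr560* by 0.63 ± 0.16 (SE, adjusted p = 0.0195 over 9 pairs, exact permutation test). All ΔJ levels of *Olfr559* lay within the range of *Kdm5d* in the females and above those of *Uty* and *Eif2s3y*. By the *Kdm5d* gauge its decrease is a lower limit, and the size of its difference from *Olfr78*/*Olfr560* is not determined. All levels of *Olfr558* lay above the range of *Kdm5d*. The Y-linked genes had unlike levels, so this gauge does not settle the background of another probe set. In ΔJ mice the means of *Olfr558*, *Olfr557* and *Olfr33* were near each other, at -2.46, -2.40 and -2.26. In wild-type mice they were -1.99, -1.63 and -1.07. Whether background limits the decreases of these genes was not tested.

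*Olfr561*, of the MOR14 subfamily and on the far side of *Olfr78*, decreased by an amount near that of both receptors. Its log2 fold change was -0.56 ± 0.14 (SE, limma-adjusted p = 0.0213), and it did not pass in the fit over all probe sets (adjusted p = 0.487 from limma). ΔJ replicates 4 and 6 of *Olfr561*, at -3.15 and -3.12, lay within the range of *Kdm5d* in the females. *Olfr558* differed from *Olfr561* by 0.09 ± 0.18 (SE, adjusted p = 0.687) and *Olfr78*/*Olfr560* by -0.17 ± 0.11 (SE, adjusted p = 0.237, exact permutation tests over 9 pairs). *Olfr78*/*Olfr560* also did not differ past the test from *Olfr557* (0.03, standard error 0.17, adjusted p = 0.84) or from *Olfr33* (0.46, standard error 0.21, adjusted p = 0.109, exact permutation tests over 9 pairs). With splits kept within the sets of arrays, an alternative chosen after the data were seen, the difference from *Olfr33* passed (adjusted p = 0.03). It also passed without ΔJ replicate 6 (0.57, adjusted p = 0.0487). By the *Kdm5d* gauge the decreases of *Olfr561* and *Olfr78*/*Olfr560* are lower limits, so the sizes of the differences in this paragraph are not determined.

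**Figure D3:**
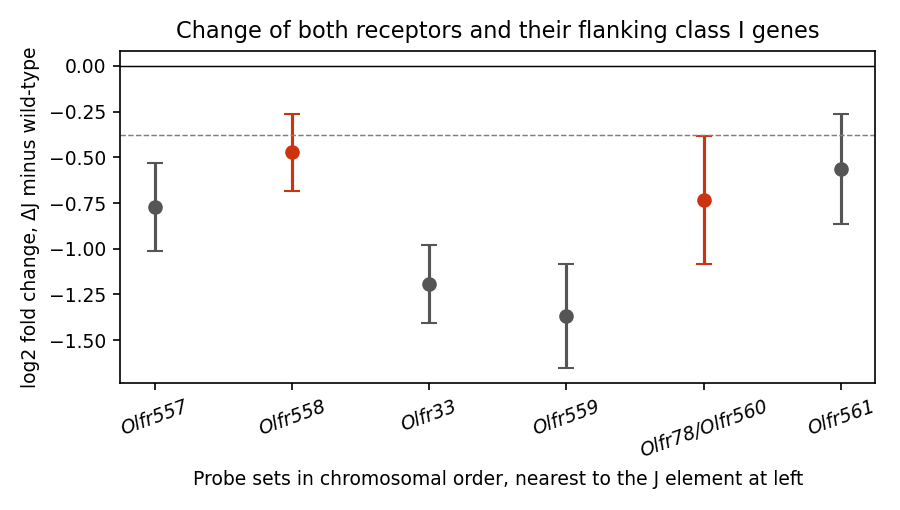
Log2 fold change (ΔJ minus wild-type, vertical axis, bars are 95% confidence intervals from limma) of *Olfr558* and *Olfr78*/*Olfr560* in red and of 4 flanking class I genes in grey, in chromosomal order from the J element. The dashed line marks a 1.3-fold decrease, and the decreases of *Olfr33* and *Olfr559* between both receptors reach -1.19 and -1.37.

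The OR probe sets whose levels ran most alike with each member over the 12 arrays were class I genes that fell as well. For *Olfr558* they were *Olfr605* (Pearson's r 0.943), *Olfr570* (0.926) and *Olfr544* (0.926), with log2 fold changes of -1.03, -1.39 and -1.84. After the mean of each genotype and array set was subtracted, the coefficients were 0.52, -0.27 and 0.49. For *Olfr78*/*Olfr560* they were *Olfr553* (0.967), *Olfr611* (0.934) and *Olfr600* (0.933), with log2 fold changes of -1.07, -0.61 and -0.96, and the coefficients after subtraction were 0.17, 0.08 and 0.19. Between both members r was 0.58 over the 12 arrays and -0.30 after subtraction. These values describe arrays that share genotype and array set, and carry no test.

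Because both receptors are also known from vessels, genes of vessel cells were read in the same RNA. The MOE held such cells, with *Acta2*, the actin of smooth muscle, at 3.17 in ΔJ and 3.25 in wild-type mice and *Myh11*, its myosin, at 0.40 in ΔJ and 0.36 in wild-type mice. Among 9 genes of vascular smooth muscle 0 were called by limma over all probe sets, and 0 reached an unadjusted p under 0.05. Of the 20754 probe sets on the array that read 1 gene other than an OR, 0 were called as well and 424 reached that unadjusted p, so a count of 0 in this or the following non-OR lists is no result about the list. Their median log2 fold change was -0.04, against -0.03 over all probe sets, and their summed linear signal (in units of the 75th percentile) ran from 14.6 to 18.0 in ΔJ and from 15.2 to 17.0 in wild-type mice. The log2 fold changes of *Acta2* and *Myh11* were -0.08 and 0.04. The part of vessel cells in the signal of either receptor was not tested.

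The lists for pericytes and renin lineage, endothelium and glomus cells also gave summed signals that overlapped between the genotypes. Of 6 measured genes of pericytes and the renin lineage, 0 were called by limma and 0 had an unadjusted p under 0.05 (median -0.01), with *Rgs5* at 0.01 and the PDGF receptor gene *Pdgfrb* at -0.16. Their summed signal was 9.81 to 11.1 in ΔJ and 10.0 to 11.5 in wild-type mice. Of 10 endothelial genes 0 were called and 0 had an unadjusted p under 0.05 (median -0.04), with the adhesion genes *Pecam1* at -0.08 and *Cdh5* at -0.04, and the sum was 5.56 to 6.05 in ΔJ and 5.58 to 6.15 in wild-type mice. Of 9 measured genes used for glomus cells, several of which other cells of the MOE also express, 0 were called and 0 had an unadjusted p under 0.05 (median -0.00124). *Th* and *Ddc*, enzymes of dopamine synthesis, had log2 fold changes of 0.15 and 0.01, and the sum was 21.2 to 28.5 in ΔJ and 20.6 to 27.2 in wild-type mice. Most of this sum came from *Chga* and *Epas1*, with mean levels of 3.47 and 3.34 in ΔJ mice. *Th* and *Ddc*, at -1.96 and -3.04 in ΔJ mice, added little to it.

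Genes through which the receptors signal or reach the membrane did not pass the test either. This group had 16 probe sets of 13 genes, of which 0 were called by limma and 0 reached an unadjusted p under 0.05 (median -0.02). *Gnal* and *Adcy3* had log2 fold changes of -0.15 and 0.04, and the sum was 115 to 140 in ΔJ and 130 to 138 in wild-type mice. Other receptors of short organic acids, such as the fatty acid receptor genes *Ffar1* and *Ffar2*, gave 0 calls among 9 genes and 0 at an unadjusted p under 0.05 (median 0.01), with log2 fold changes of -0.10 and 0.03. Their sum was 1.27 to 1.69 in ΔJ and 1.25 to 1.92 in wild-type mice.

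Among other ORs that are known from tissues outside the nose, 1 of 12 probe sets was called, against 6.18% of all OR probe sets. It belonged to *Olfr544*, a class I receptor known from fat and pancreas, with a log2 fold change of -1.84 (adjusted p = 1.01e-08 from limma). All the others were class II. *Olfr90* had a log2 fold change of -0.07, *Olfr1392* -0.23, *Olfr1393* -0.13, *Olfr16*, also known from sperm and muscle, -0.08, *Olfr734* 0.13, *Olfr2* -0.02 and *Olfr109* -0.13. The probe set of *Olfr56*, which also reads *Ifi47*, had 0.24. The probe sets that *Olfr90* shares with other genes and that *Olfr1392* and *Olfr1393* share had values from -0.09 to -0.06. None of these passed the adjusted or the unadjusted test, and of all 1072 class II probe sets 0 were called by limma and 8 had an unadjusted p under 0.05.

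**Figure D4:**
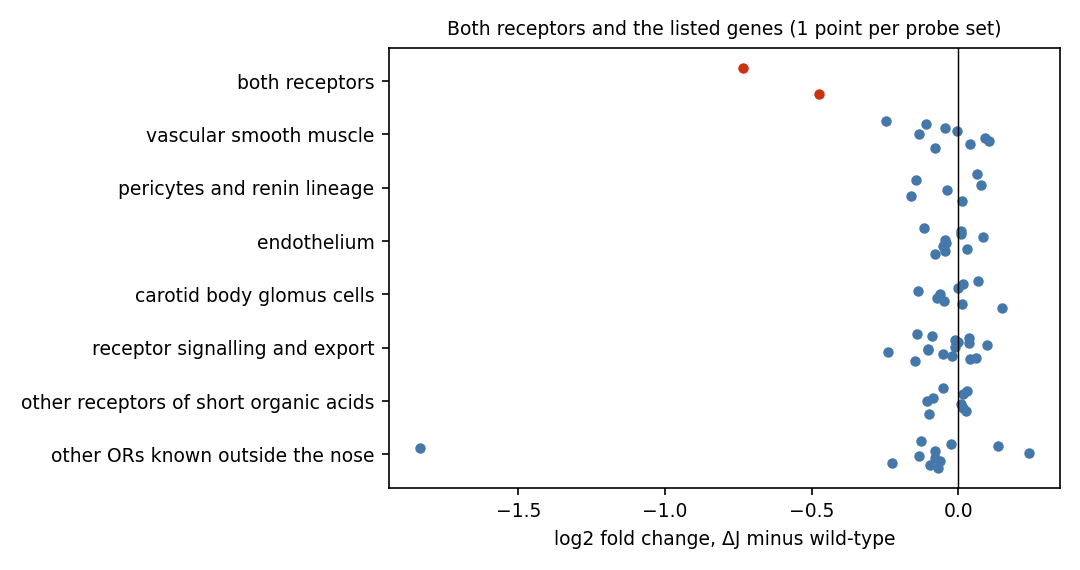
Log2 fold change (ΔJ minus wild-type, horizontal axis) of both receptors (red) and of each probe set of the 7 gene lists (blue, 1 point per probe set). Apart from *Olfr544* at -1.84 in the bottom row, every listed probe set lay between -0.25 and 0.24, right of both receptors.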

How the data were processed

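For each of the 12 mice, the authors deposited 1 array (Affymetrix Mouse Gene 1.0 ST) as log2 signals of 35556 probe sets. They were made with Affymetrix Expression Console, per the submitters' processing notes, with settings for background and summarization not given in the sources used. The 75th percentile of each array was subtracted, as in the study's methods, which name this shift and a moderated test of the 1213 OR probe sets. The main fit used lmFit and eBayes (limma 3.58.1, R 4.3.3, genotype as the only term, Benjamini-Hochberg adjustment). Genes other than ORs were fitted over all probe sets. OR class was taken from the study's list of OR probe sets and gene positions from RefSeq, and distances run between a gene's lower coordinate and the middle of the deletion the study gives. Differences between 2 probe sets were tested per mouse by exact permutation, 9 pairs in all. The steps were tested on simulated data.

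Members and lists were chosen with earlier results of these data known. The genes named are both members, probe sets with *Olfr560*, the 4 flanking genes, all ORs of the list of ORs outside the nose, the first 2 measured genes of each other list, and the 3 OR probe sets most like each member. *Omp*, *Chga*, *Epas1* and the Y-linked genes were named after their values were seen. The gene lists covered vascular smooth muscle, pericytes and renin lineage, endothelium, glomus cells, receptor signalling and export, other acid receptors and ORs outside the nose. *Ren1* and *Akr1b7* were not analysed here.

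Mice of the same replicate number deviated together from their genotype means (correlations 0.365, 0.294, 0.419, 0.441, 0.185 and 0.385), so the replicate number was also used as a block. Such mice are also in the same array set, whose mean was not subtracted, and mice of unlike number were not compared. The correlations therefore cannot show that a replicate number shares more than its array set. What the numbers share is not stated in the labels. Alternatives covered the normalization, the scope of the fit, array set, sex, age, dim probe sets and each mouse left out.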

Additional observations from a re-analysis of the deposited data

Results flagged for a closer look

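In 3 of 72 groups of 6 mice, over the 36 probe sets named or listed first, 1 mouse lay far from the other 5, and chance alone flags about 1 group in 20. None of these groups belonged to *Olfr558* or *Olfr78*/*Olfr560*. Wild-type replicate 3 had a level of -1.3 in *Olfr557*, against -1.82 to -1.64 in the other wild-type mice. ΔJ replicate 5 had a level of -1.27 in *Olfr1392*, against -0.46 to -0.08 in the other ΔJ mice. ΔJ replicate 2 had a level of -2.53 in *Olfr605*, against -2.30 to -2.22 in the other ΔJ mice.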

How the results depend on the processing

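*Olfr558* kept its direction under all 24 alternatives and its call under 22 of them. The call was lost in replicates 4 to 6 only (-0.47, adjusted p = 0.0995 from limma) and with day 30 mice only (-0.44, adjusted p = 0.0764). *Olfr78*/*Olfr560* kept its direction under all 23 alternatives that gave a value and its call under 22, and lost it in the fit over all probe sets (-0.74, adjusted p = 0.313). The filter on dim probe sets removed it and so gave no value for it. In the fit over all probe sets 46 OR probe sets were called lower, against 75 in the fit over OR probe sets, and 44 intact class I probe sets, against 73. With each mouse left out in turn the log2 fold change ran from -0.52 to -0.45 in *Olfr558* (adjusted p up to 0.0173) and from -0.81 to -0.64 in *Olfr78*/*Olfr560* (adjusted p up to 0.0282). With the replicate number as a block the adjusted p was 0.00219 for *Olfr558* (-0.47) and 0.000134 for *Olfr78*/*Olfr560* (-0.74), and the block changed no call of these or of the lists. The difference between both decreases stayed unresolved under 19 alternatives, with values of 0.16 to 0.36 when a mouse was left out and an exact p of 0.0938 with the replicate block. Sets of 3 against 3 mice allow no exact p below 0.1. Of the 8 pairs of a member and a flanking gene 3 passed, and 3 to 4 did when a mouse was left out. The cause of the lost calls was not tested.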
